A study of Homo sapiens with 2 samples.

Results

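The axon guidance ligands and receptors described here are 66 protein-coding genes of the ephrin, Eph, semaphorin, plexin, neuropilin, netrin, UNC5, SLIT and ROBO families, chosen by gene symbol from 19951 protein-coding genes and 58735 genes of all types. They comprise 33 ligands and 33 receptors. The series holds 2 RNA sequencing libraries of BT549, an established line from a breast carcinoma that lacks hormone receptors and shows mesenchymal traits. The shSIK2 library came from cells with a knockdown of SIK2, a salt-inducible kinase, by a short hairpin RNA, and the scrambled library from cells with a control hairpin. Wnt3a, a secreted activator of the Wnt pathway, was applied for 2 h in both groups, so no library shows cells without it. The labels do not say whether either line was a clone or a pool. With 1 library in each group, differences between libraries could not be set against a spread between replicates, and no test was made.

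Guidance molecules steer growing axons by attraction and repulsion, and the same proteins set contact, adhesion and migration of epithelial, vascular and tumour cells. Ephrins are membrane-bound ligands of the Eph receptor tyrosine kinases. Semaphorins act through plexins, and secreted class 3 semaphorins mostly need a neuropilin as co-receptor. Netrins act through DCC and UNC5 receptors, and SLIT proteins through ROBO receptors. All these routes end on small GTPases and on the actin cytoskeleton.

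The deposited values were FPKM, read counts per kilobase of exon length on a common depth scale, from which whole reads could be recovered. Reads in genes came to 16347399 in the shSIK2 library and 18019225 in the scrambled library. SIK2 itself stood at 3.56 FPKM (599 reads) in the shSIK2 library, against 7.80 FPKM (1312 reads) in the scrambled library. It was 2.19-fold lower (95% counting interval 1.99 to 2.42). With both libraries scaled to equal total reads, the log2 ratio of SIK2 was -0.97, short of 2-fold. Folds are ratios of recovered reads, and their exact intervals cover counting error only. In bulk RNA, fewer cells with a transcript and less transcript per cell cannot be told apart. Of 8 mesenchymal markers 7 reached 1 FPKM, with VIM at 283 FPKM in the shSIK2 library and 260 in the scrambled library. PGR and EPCAM were at 0 reads in both libraries, and ESR1 had 0 reads in the shSIK2 library and 6 in the scrambled library. None of 8 endothelial and none of 8 leukocyte markers reached 1 FPKM. The endothelial set had 2 reads in all in the shSIK2 library and 8 in the scrambled library, and the leukocyte set 40 and 34 in the same order. Among neuronal and glial markers, RBFOX3 and SOX10 were at 0 in both libraries. The 10 luminal markers, of which KRT18, GATA3 and ERBB2 were measured, summed to 45.6 FPKM in the shSIK2 library and 19.1 in the scrambled library. KRT18, a keratin, made most of that gap, at 19.3 FPKM in the shSIK2 library and 2.14 in the scrambled library, and the part of this shift in the guidance genes was not tested.

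Of the 66 genes, 30 reached 1 FPKM in at least 1 library and are called measured. Among these, 10 (33.3%) lay 2-fold or more above the scrambled library in the shSIK2 library and 6 (20%) 2-fold or more below it, on the scale of log2(FPKM + 0.1). Over all 12866 measured genes of the series the shares were 11.0% higher and 8.28% lower. The higher side held EFNA1, EFNA4, EFNB1, EFNB3, EPHB2, SEMA3F, SEMA4F, SEMA4G, PLXNA3 and PLXNB2. UNC5B, SEMA3D, EPHA4, EPHA5, NTN4 and SLIT2 made up the lower side. The median log2 ratio of the measured guidance genes was 0.34, against -0.11 for all measured genes. Of the 30 genes, 23 reached 1 FPKM in both libraries, 5 in the shSIK2 library only and 2 in the scrambled library only, and those 7 had to differ to some degree to be so placed. With both libraries scaled to equal total reads, a log2 ratio of reads moves up by 0.14, and one with the pseudocount by slightly less in low genes. The counts then were 13 higher and 4 lower, beside 13.4% and 6.04% of all measured genes, and the medians 0.48 and 0.03.

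**Figure D1:**
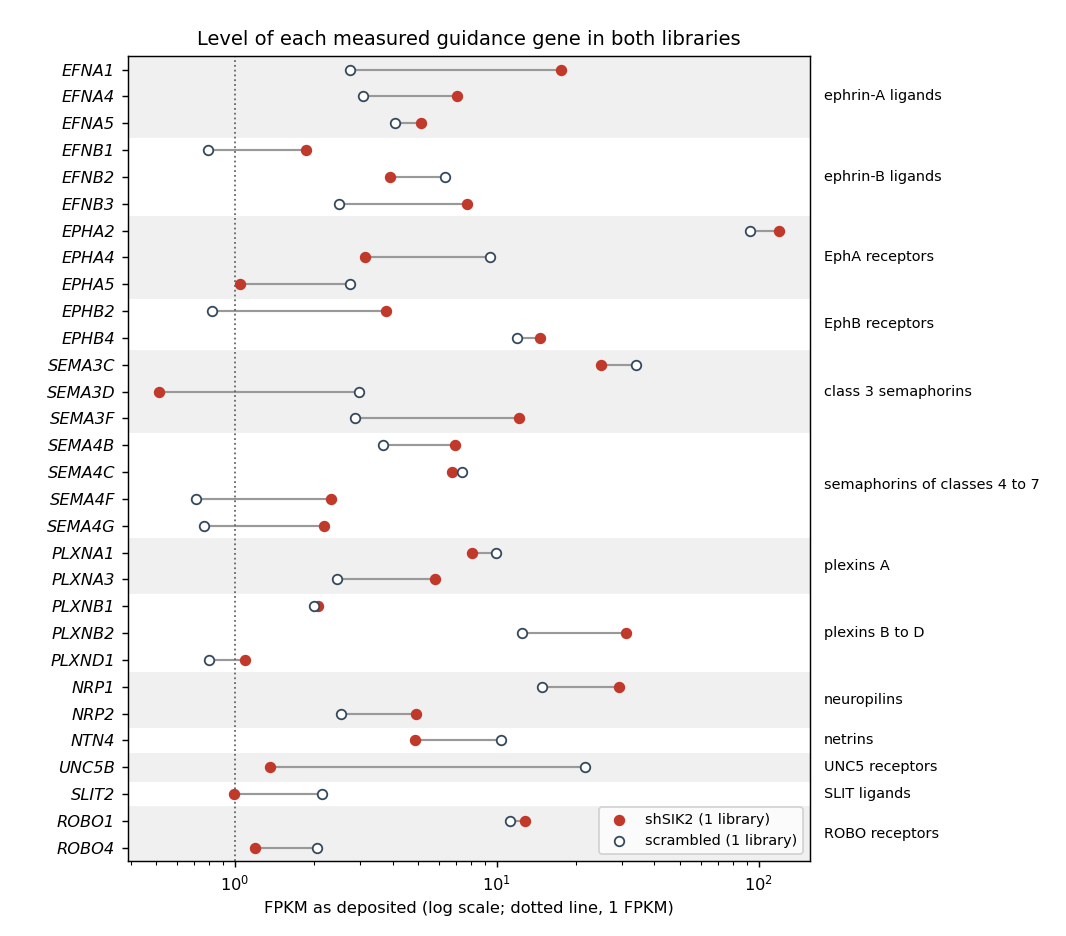
FPKM (log axis) of the 30 measured guidance genes by subfamily, with 1 filled point for the shSIK2 library and 1 open point for the scrambled library per gene. EPHA2 stood highest in both libraries, at 119.7 and 93.0 FPKM, and UNC5B had the widest gap, at 1.36 and 21.8 FPKM.

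In order of level, the shSIK2 library was led by EPHA2 at 119.7 FPKM, PLXNB2 at 31.1, NRP1 at 29.2, SEMA3C at 25.0 and EFNA1 at 17.5. The scrambled library was led by EPHA2 at 93.0 FPKM, SEMA3C at 34.1, UNC5B at 21.8, NRP1 at 14.9 and PLXNB2 at 12.5. EPHA2 was thus the most abundant guidance transcript in both, at rank 234 of all measured genes in the shSIK2 library and rank 365 in the scrambled library. Among the 66 genes UNC5B stood at rank 25 in the shSIK2 library and rank 3 in the scrambled library. EFNA1 stood at rank 5 in the shSIK2 library and rank 18 in the scrambled library.

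Short stretches upstream of transcription start sites are given for members on the higher side, on the lower side and between, since SIK kinases act on coactivators of CREB and the cells had been given Wnt3a. RefSeq promoters (GRCh38.p14) were found for 57 of the 66 genes, with 89 start sites. EFNB3, EPHA10, NRP1, NTN1, SEMA3A, SEMA6A, SEMA6B, UNC5B and UNC5D had no entry. The 250 bases upstream of each start were searched on both strands for the cyclic AMP response element TGACGTCA, for its half-site TGACG, which lies inside it, and for the TCF/LEF letters CTTTGAA or CTTTGAT or CTTTGTA or CTTTGTT. Capitals mark these letters, or their reverse complement, in the sequences, which run 5′ to 3′ on the strand of the gene.
EPHB2 (chr1:22710588-22710837, plus strand): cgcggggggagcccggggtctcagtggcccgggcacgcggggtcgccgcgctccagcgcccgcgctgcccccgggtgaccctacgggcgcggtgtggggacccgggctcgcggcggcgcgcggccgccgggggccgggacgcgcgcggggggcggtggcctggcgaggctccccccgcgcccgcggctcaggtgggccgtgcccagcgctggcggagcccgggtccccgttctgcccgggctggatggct
PLXNB2 (chr22:50301670-50301919, minus strand): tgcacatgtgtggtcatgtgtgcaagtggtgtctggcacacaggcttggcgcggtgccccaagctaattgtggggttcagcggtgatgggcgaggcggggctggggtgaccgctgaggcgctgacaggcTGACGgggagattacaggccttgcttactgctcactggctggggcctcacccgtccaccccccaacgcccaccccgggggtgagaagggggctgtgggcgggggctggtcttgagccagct
SEMA3F (chr3:50158769-50159018, plus strand): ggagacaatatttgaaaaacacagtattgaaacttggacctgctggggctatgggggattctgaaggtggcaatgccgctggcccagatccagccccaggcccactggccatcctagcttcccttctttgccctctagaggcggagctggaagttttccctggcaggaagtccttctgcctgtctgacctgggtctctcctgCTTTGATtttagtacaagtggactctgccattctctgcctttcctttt
SEMA3D (chr7:85187057-85187306, minus strand): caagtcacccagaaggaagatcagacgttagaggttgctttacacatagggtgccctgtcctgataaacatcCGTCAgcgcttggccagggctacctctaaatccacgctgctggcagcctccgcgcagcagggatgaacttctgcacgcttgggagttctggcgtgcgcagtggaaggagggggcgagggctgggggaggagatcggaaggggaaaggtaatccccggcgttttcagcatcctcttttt
NTN4 (chr12:95791156-95791405, minus strand): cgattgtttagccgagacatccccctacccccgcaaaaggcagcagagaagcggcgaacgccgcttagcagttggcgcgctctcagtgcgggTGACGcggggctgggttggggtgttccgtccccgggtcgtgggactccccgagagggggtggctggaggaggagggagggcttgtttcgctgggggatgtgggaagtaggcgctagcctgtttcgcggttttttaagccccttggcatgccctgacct
SEMA4C (chr2:96870081-96870330, minus strand): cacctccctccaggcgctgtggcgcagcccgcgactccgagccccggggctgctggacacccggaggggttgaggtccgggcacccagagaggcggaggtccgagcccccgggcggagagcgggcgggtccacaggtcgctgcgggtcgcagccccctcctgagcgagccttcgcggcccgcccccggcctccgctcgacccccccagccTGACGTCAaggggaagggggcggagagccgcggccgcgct
EPHB2, PLXNB2 and SEMA3F were at least 2-fold higher, SEMA3D and NTN4 at least 2-fold lower, and SEMA4C nearly level. The stretches of PLXNB2, SEMA3F and SEMA4C lie inside the gene, and none of the 6 overlaps an annotated exon. For SEMA3F and NTN4 the start whose stretch holds a match is shown, and their other starts held none. No test was made of these counts. A half-site was found in PLXNB2, SEMA3D and NTN4, the full element in SEMA4C, a TCF/LEF match in SEMA3F, and none of these in EPHB2. Matches are thus more common in the 6 stretches shown than over all start sites of the guidance genes, which the 6 do not represent. Over all start sites of the guidance genes 21.3% held a half-site, 3.37% the full element and 10.1% a TCF/LEF match, against 21.2%, 1.65% and 11.96% of 35116 promoters in the RefSeq table. Among genes at least 2-fold higher with an entry, 1 of 9 held a half-site and 2 of 9 a TCF/LEF match at any start, against 3 of 5 and 0 of 5 of those at least 2-fold lower. Genes differ in their number of starts, and no share of all genes was counted in this way. These counts per gene therefore cannot be set against the shares per start site, and no contrast is drawn from them. A match is a description of letters and not evidence of binding.

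Of the ephrin ligands, EFNA1, EFNA4, EFNB1 and EFNB3 were on the higher side, and of the semaphorins SEMA3F, SEMA4F and SEMA4G. SEMA4B joined these at equal totals. EFNA4 and EFNB1 fell short of 2-fold with the trend of GC content and exon length removed, so the families are not ranked. EFNA1, a GPI-anchored ephrin-A and a high-affinity ligand of EPHA2 (chromosome 1, 155127460 to 155134857, GRCh38), stood at 17.5 FPKM (764 reads) in the shSIK2 library, against 2.75 FPKM (120 reads) in the scrambled library. The fold was 6.37 (5.25 to 7.78), the highest among the measured guidance genes. EFNA4, another ephrin-A, stood at 7.06 FPKM (153 reads) in the shSIK2 library, against 3.09 FPKM (67 reads) in the scrambled library, 2.28-fold higher (1.70 to 3.09). EFNA3 lies between them on chromosome 1 and was under 1 FPKM in both, with 28 reads in the shSIK2 library and 10 in the scrambled library. All 3 genes of this stretch thus had more reads in the shSIK2 library. EFNA4 shares 15.0% of its exon bases with an overlapping gene of the same strand that was listed at 0 in both libraries, so reads in that stretch may not have been assigned. EFNA5, on chromosome 5, stood at 5.14 FPKM (503 reads) in the shSIK2 library and 4.09 FPKM (400 reads) in the scrambled library, 1.26-fold higher (1.10 to 1.44).

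Ephrin-B ligands are transmembrane proteins that also signal back into their own cell. EFNB3 stood at 7.72 FPKM (427 reads) in the shSIK2 library, against 2.50 FPKM (138 reads) in the scrambled library, 3.09-fold higher (2.55 to 3.78). EFNB1, which is mutated in craniofrontonasal syndrome, stood at 1.86 FPKM (106 reads) in the shSIK2 library and 0.791 FPKM (45 reads) in the scrambled library, 2.36-fold higher (1.65 to 3.42). EFNB2, the arterial ephrin and a ligand of EPHB4, went the other way. It stood at 3.90 FPKM (336 reads) in the shSIK2 library, against 6.34 FPKM (546 reads) in the scrambled library, 1.63-fold lower (1.42 to 1.87) and short of 2-fold. It overlaps an antisense gene over 26.2% of its exon bases, with 15 reads in the shSIK2 library and 10 in the scrambled library. The leading ephrin-B was therefore EFNB3 in the shSIK2 library and EFNB2 in the scrambled library. The summed level of all 8 ephrins was 44.3 FPKM in the shSIK2 library and 19.9 FPKM in the scrambled library, a ratio of 2.22, and EFNA1 made up 39.6% of it in the shSIK2 library and 13.8% in the scrambled library.

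Eph receptors were divided by member. EPHA2, the main Eph kinase of many carcinomas (chromosome 1, 16124337 to 16156087), stood at 119.7 FPKM (8544 reads) in the shSIK2 library and 93.0 FPKM (6641 reads) in the scrambled library, 1.29-fold higher (1.25 to 1.33). It made up 84.0% of the summed FPKM of all 14 Eph receptors in the shSIK2 library and 78.7% in the scrambled library. EPHA4, which binds ephrins of both classes (chromosome 2, 221418027 to 221574202), stood at 3.13 FPKM (406 reads) in the shSIK2 library, against 9.39 FPKM (1217 reads) in the scrambled library. It was 2.998-fold lower (2.68 to 3.36). EPHA5, a receptor best known from brain, stood at 1.05 FPKM (177 reads) in the shSIK2 library and 2.74 FPKM (463 reads) in the scrambled library, 2.62-fold lower (2.20 to 3.13). Of the 3 measured EphA receptors the abundant one was thus slightly higher and the other two were lower.

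EPHB2, a receptor known as a Wnt target in the intestine (chromosome 1, 22710839 to 22921500), stood at 3.77 FPKM (810 reads) in the shSIK2 library, against 0.815 FPKM (175 reads) in the scrambled library. The fold was 4.63 (3.93 to 5.48). EPHB4, the venous Eph receptor and the most abundant EphB, stood at 14.7 FPKM (1620 reads) in the shSIK2 library and 11.98 FPKM (1323 reads) in the scrambled library, 1.22-fold higher (1.14 to 1.32). EPHB6, which lacks kinase activity, had 1 read in the shSIK2 library and 20 in the scrambled library, under 1 FPKM in both. The remaining 8 Eph receptors had at most 4 reads in either library, and EPHA6, EPHA7 and EPHA10 had 0 in both.

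Semaphorin levels differed by class and member. SEMA3C, a secreted semaphorin often expressed in tumours (chromosome 7, 80742538 to 80922359), was the most abundant, at 25.0 FPKM (2691 reads) in the shSIK2 library and 34.1 FPKM (3669 reads) in the scrambled library. It was 1.36-fold lower (1.30 to 1.43). SEMA3F, known as a repellent that binds NRP2 (chromosome 3, 50155045 to 50189075), stood at 12.2 FPKM (1007 reads) in the shSIK2 library, against 2.87 FPKM (238 reads) in the scrambled library. It was 4.23-fold higher (3.67 to 4.89). SEMA3D, a secreted semaphorin (chromosome 7, 84995553 to 85186855), stood at 0.513 FPKM (71 reads) in the shSIK2 library, against 2.98 FPKM (412 reads) in the scrambled library, 5.80-fold lower (4.50 to 7.57). SEMA3A, the prototype repellent acting through NRP1, was under 1 FPKM in both libraries, with 15 reads in the shSIK2 library and 96 in the scrambled library, 6.4-fold lower (3.69 to 11.9). SEMA3A, SEMA3C, SEMA3D and SEMA3E, which had no reads, all lie on chromosome 7 between 80742538 and 85186855, and the 3 with reads all had fewer in the shSIK2 library. SEMA3B and SEMA3F lie near each other on chromosome 3 and both had more reads in the shSIK2 library, with SEMA3B at 88 reads against 52 in the scrambled library. The summed level of class 3 was almost level, at 38.7 FPKM in the shSIK2 library and 41.1 FPKM in the scrambled library, while SEMA3C made up 64.7% of it in the shSIK2 library and 83.0% in the scrambled library.

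Class 4 semaphorins are transmembrane proteins, and 4 of them were measured. SEMA4F stood at 2.32 FPKM (248 reads) in the shSIK2 library, against 0.711 FPKM (76 reads) in the scrambled library, 3.26-fold higher (2.51 to 4.28). SEMA4G stood at 2.20 FPKM (198 reads) in the shSIK2 library and 0.765 FPKM (69 reads) in the scrambled library, 2.87-fold higher (2.17 to 3.83). SEMA4G shares 22.3% of its exon bases with MRPL43 on the other strand, and the labels do not state whether counting used the strand, so reads of both genes cannot be told apart there. MRPL43 itself, a mitochondrial ribosomal protein gene, had 563 reads in the shSIK2 library and 682 in the scrambled library. These reads are not scaled to equal totals, and how many of them fall in the shared stretch was not tested. SEMA4B stood at 6.95 FPKM (836 reads) in the shSIK2 library and 3.68 FPKM (443 reads) in the scrambled library, 1.89-fold higher (1.68 to 2.12). SEMA4C, a ligand of PLXNB2 and the most abundant of the 4 in the scrambled library, had an interval that includes 1. Its level was 6.75 FPKM (713 reads) in the shSIK2 library and 7.37 FPKM (779 reads) in the scrambled library, a fold of 0.915 (0.826 to 1.01). None of the measured semaphorins belonged to classes 5 to 7. SEMA6C came closest, at 0.833 FPKM (83 reads) in the shSIK2 library and 0.321 FPKM (32 reads) in the scrambled library.

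**Figure D2:**
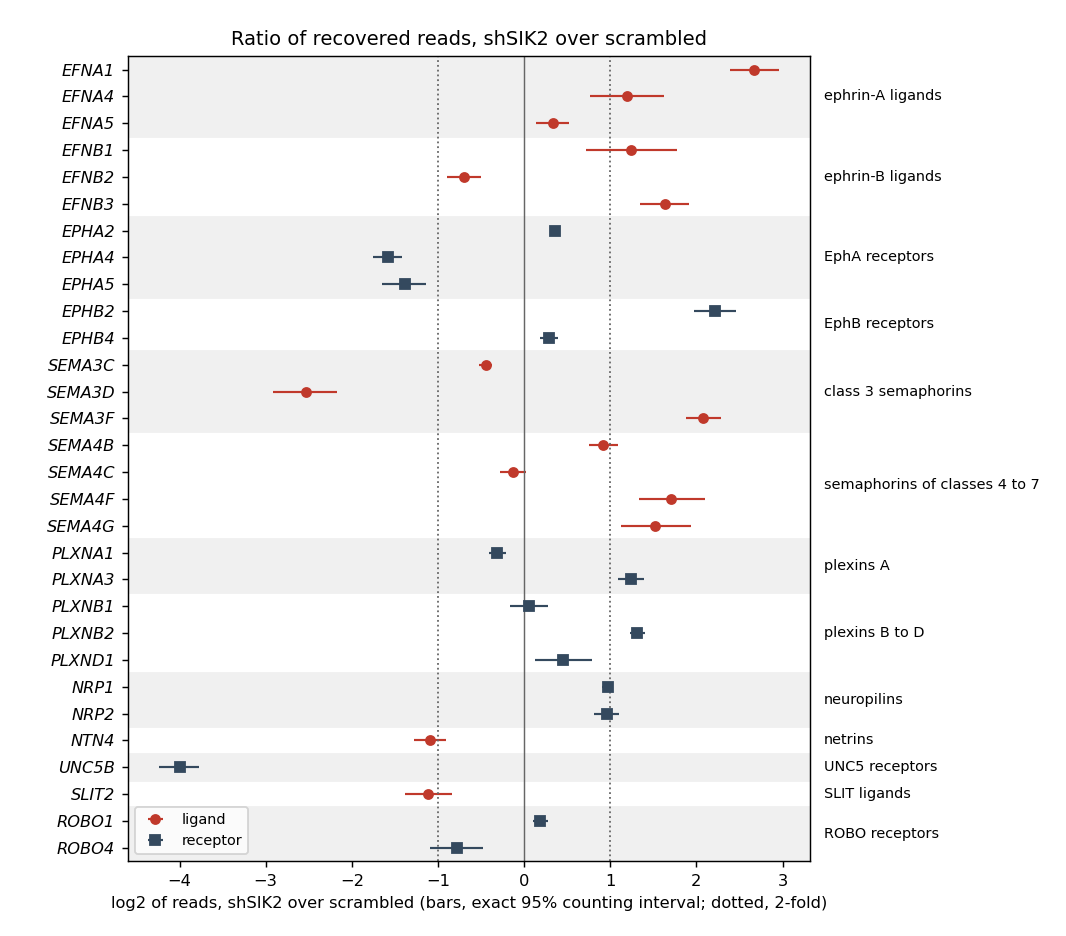
Log2 ratio of recovered reads, shSIK2 over scrambled, of the 30 measured guidance genes, with circles for ligands, squares for receptors, and bars for the exact 95% counting interval. UNC5B lies lowest, 16.01-fold lower, and EFNA1 lies highest at 6.37-fold. The intervals, of reads not scaled to equal totals, exclude 1 for 28 of the 30 genes and for 9429 of all 12866 measured genes.

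Plexins and neuropilins, the receptors of semaphorins, were higher or nearly level, apart from PLXNA1 and members below 1 FPKM. PLXNB2, a receptor of class 4 semaphorins (chromosome 22, 50274979 to 50307627), stood at 31.1 FPKM (3870 reads) in the shSIK2 library, against 12.5 FPKM (1557 reads) in the scrambled library. It was 2.49-fold higher (2.34 to 2.64). PLXNA3, which pairs with neuropilins to receive class 3 semaphorins, stood at 5.80 FPKM (1165 reads) in the shSIK2 library, against 2.45 FPKM (493 reads) in the scrambled library, 2.36-fold higher (2.13 to 2.63). PLXNA1, the most abundant A-type plexin, stood at 8.01 FPKM (1505 reads) in the shSIK2 library and 9.97 FPKM (1872 reads) in the scrambled library, 1.24-fold lower (1.16 to 1.33). PLXNB1, a receptor of SEMA4D, was at 2.08 FPKM (347 reads) in the shSIK2 library and 2.01 FPKM (335 reads) in the scrambled library, a fold of 1.04 (0.89 to 1.21). PLXND1 was at 1.09 FPKM in the shSIK2 library and 0.796 FPKM in the scrambled library, 1.37-fold higher (1.09 to 1.72). PLXNA2 was under 1 FPKM, with 42 reads in the shSIK2 library and 191 in the scrambled library, 4.55-fold lower (3.24 to 6.51).

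NRP1, a co-receptor for class 3 semaphorins and for VEGF-A (chromosome 10, 33177492 to 33336262), stood at 29.2 FPKM (5770 reads) in the shSIK2 library, against 14.9 FPKM (2941 reads) in the scrambled library. The fold was 1.96 (1.88 to 2.05), just short of 2. NRP2, the co-receptor preferred by SEMA3F, stood at 4.93 FPKM (1175 reads) in the shSIK2 library and 2.54 FPKM (605 reads) in the scrambled library, 1.94-fold higher (1.76 to 2.15). With both libraries scaled to equal totals, their log2 ratios were 1.11 and 1.07, past 2-fold. SEMA4B also passed at equal totals, at 1.04, and these are the 3 genes by which that count exceeds the one of the deposited values.

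The netrin and UNC5 genes stood lower, where measured. UNC5B, a dependence receptor for netrins (chromosome 10, 71212570 to 71302864), had the largest difference of all 30 measured genes. It stood at 1.36 FPKM (160 reads) in the shSIK2 library, against 21.8 FPKM (2561 reads) in the scrambled library, 16.01-fold lower (13.6 to 18.9). UNC5A, UNC5C and UNC5D did not reach 1 FPKM. UNC5C had 41 reads in the shSIK2 library and 24 in the scrambled library, and UNC5A 9 reads in the shSIK2 library and 0 in the scrambled library. The summed level of the UNC5 receptors was 1.71 FPKM in the shSIK2 library and 21.9 FPKM in the scrambled library. NTN4, a netrin of basement membranes, stood at 4.87 FPKM (348 reads) in the shSIK2 library and 10.4 FPKM (744 reads) in the scrambled library, 2.14-fold lower (1.88 to 2.44). NTN1, the classical netrin, had 8 reads in the shSIK2 library and 7 in the scrambled library. At this depth a difference in NTN1 of several-fold would not be detectable, since the interval of its fold ran from 0.36 to 3.70.

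SLIT2, the main SLIT here, stood at 0.996 FPKM (166 reads) in the shSIK2 library, against 2.15 FPKM (359 reads) in the scrambled library, 2.16-fold lower (1.79 to 2.62). At equal totals NTN4 and SLIT2 had log2 ratios of -0.94 and -0.91, short of 2-fold. SLIT3 had 41 reads in the shSIK2 library and 45 in the scrambled library, and SLIT1 0 and 1 in the same order. ROBO1, the widely expressed SLIT receptor, stood at 12.8 FPKM (2382 reads) in the shSIK2 library and 11.2 FPKM (2092 reads) in the scrambled library, 1.14-fold higher (1.07 to 1.21). ROBO4, known as an endothelial receptor, stood at 1.19 FPKM (144 reads) in the shSIK2 library and 2.05 FPKM (248 reads) in the scrambled library, 1.72-fold lower (1.40 to 2.13). The endothelial markers PECAM1, CDH5, CLDN5 and ESAM were at 0 reads in both libraries. TEK and KDR had 0 reads in the shSIK2 library and 5 and 3 in the scrambled library. TIE1 and VWF had 1 read each in the shSIK2 library and 0 in the scrambled library. The source of the ROBO4 reads was not tested. ROBO3 had 1 read in the shSIK2 library and 15 in the scrambled library, and ROBO2 none in either.

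**Figure D3:**
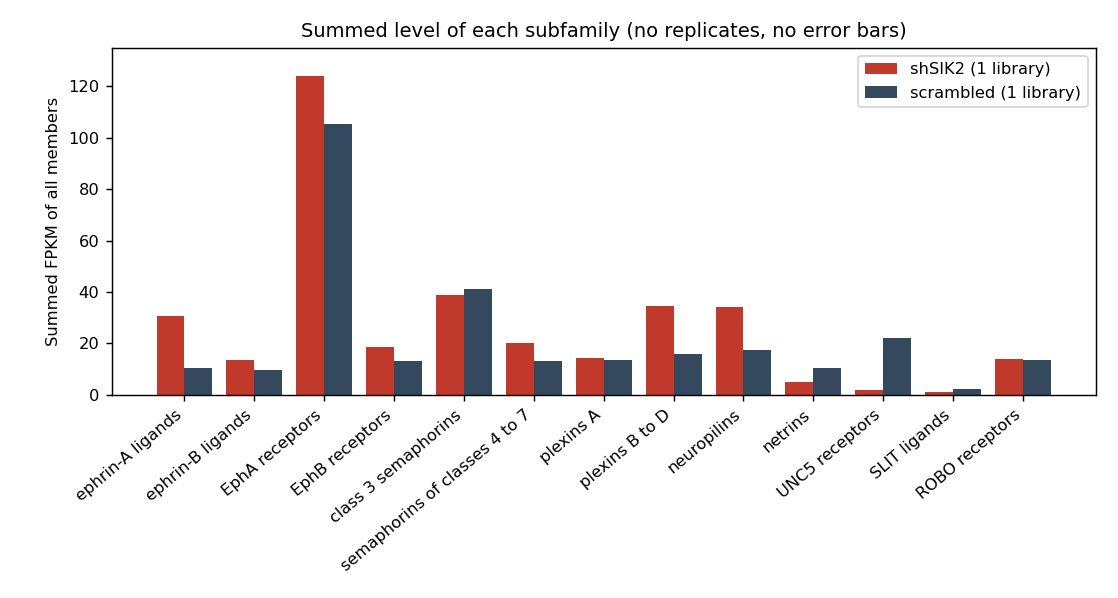
Summed FPKM of all members of each subfamily, with the shSIK2 library (left bar) beside the scrambled library (right bar) and no error bars, since each group held 1 library. EphA receptors sum highest, at 124.0 and 105.2 FPKM, and the UNC5 receptors have the most unequal pair as a ratio, at 1.71 and 21.9 FPKM.

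By role, 7 of 15 measured ligands passed 2-fold on the higher side and 3 on the lower, against 3 and 3 of 15 measured receptors, beside 11.0% higher and 8.28% lower of all measured genes. Median log2 ratios were 0.90 for ligands and 0.29 for receptors. Some ligands and receptors known to bind each other differed in opposite ways or in size, and others went the same way. These pairs were picked after their values were seen. EFNA1 was 6.37-fold higher beside its receptor EPHA2 at 1.29-fold. EFNB2 was 1.63-fold lower beside EPHB4 at 1.22-fold higher. SEMA3F was 4.23-fold higher, with its co-receptor NRP2 at 1.94-fold higher and PLXNA3 at 2.36-fold higher. SEMA4C had a fold of 0.915 beside PLXNB2 at 2.49. The ephrin-B ligands EFNB1 and EFNB3 were 2.36-fold and 3.09-fold higher, with the EphB receptor EPHB2 at 4.63-fold higher. NTN4 and the netrin receptor UNC5B, listed by family and not as a known binding pair, were both lower, at 2.14-fold and 16.01-fold. Transcript levels do not give protein levels or binding.

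The 36 genes below 1 FPKM in both libraries included 29 with some reads and 7 with none. Those at 0 in both were EPHA6, EPHA7, EPHA10, SEMA3E, SEMA3G, SEMA6D and ROBO2. A count of 0 allows up to 3 reads, which is 0.01 FPKM for ROBO2 and 0.03 FPKM for SEMA3G, the shortest of the 7. No gene listed at 0 in 1 library had 10 or more reads in the other.

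Base composition moved with the ratios. The log2 ratio correlated with the GC content of transcripts across 10666 measured protein-coding genes, at a Spearman coefficient of 0.34, although genes of a pair of libraries are no replicates of each other. Across the 30 measured guidance genes, which share both libraries, the coefficient was 0.35. Their median GC content was 58.0%, against 48.9% for all measured protein-coding genes. The lower genes SEMA3D, EPHA5, SLIT2, EPHA4 and NTN4 had GC contents of 37.8%, 40.8%, 45.4%, 46.4% and 47.5%, and UNC5B, at 59.7%, stood apart from them. The 10 higher genes had a median of 58.4%, and the 14 genes that were neither 2-fold higher nor lower had 59.8%. With the trend of GC content and exon length removed, the counts of guidance genes past 2-fold were 7 higher and 5 lower, beside 9.16% and 8.54% of all genes. EFNA4, EFNB1, PLXNA3 and PLXNB2 then fell short of 2-fold on the higher side, at log2 ratios of 0.79, 0.80, 0.96 and 0.87, and NRP1 passed it at 1.13. NTN4 and SLIT2 fell short on the lower side, at -0.98 and -0.92, and ROBO4 passed it at -1.03. EFNA1, EPHB2, SEMA3F and UNC5B kept log2 ratios of 2.39, 1.92, 1.62 and -4.19.

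**Figure D4:**
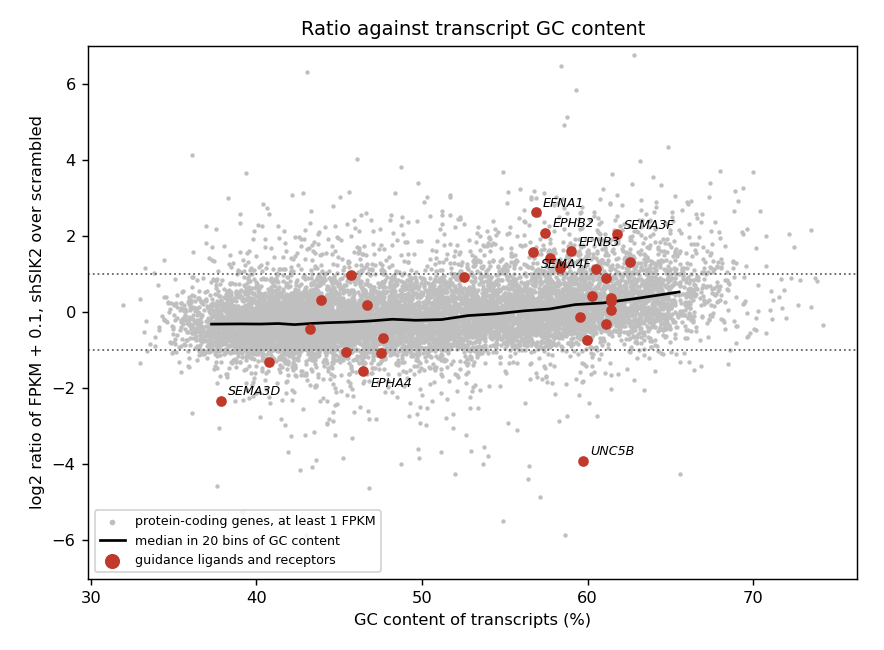
Log2 ratio of FPKM + 0.1, shSIK2 over scrambled, against the GC content of transcripts in percent for measured protein-coding genes (grey), with medians in 20 bins (line) and the 30 measured guidance genes (red). UNC5B, at 59.7% GC and a log2 ratio of -3.91, lies far under the line, whereas SEMA3D lies at 37.8% and -2.33.

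Other genes of the guidance pathways, a list of 69 co-receptors, adaptors, GTPase regulators and cytoskeletal effectors, are given for comparison. Of 49 measured genes, 3 passed 2-fold on the higher side and 9 on the lower, or 6.12% and 18.4%, beside 11.0% and 8.28% of all measured genes. They had a median log2 ratio of -0.29 against -0.11 for all measured genes. At equal totals 3 of the 49 were higher and 4 lower, beside 13.4% and 6.04% of all measured genes. VAV3, an exchange factor for small GTPases downstream of Eph receptors, stood at 13.1 FPKM in the shSIK2 library and 3.39 FPKM in the scrambled library, 3.87-fold higher (3.47 to 4.31). MICAL1, an actin-oxidising enzyme downstream of A-type plexins, stood at 5.84 FPKM in the shSIK2 library and 1.89 FPKM in the scrambled library, 3.09-fold higher (2.66 to 3.60). GPC1, a heparan sulfate proteoglycan that binds SLIT proteins, was 2.57-fold higher (2.18 to 3.05). With the trend of GC content and exon length removed, GPC1 fell short of 2-fold, at a log2 ratio of 0.74. On the lower side, FLRT2, an adhesion protein that binds UNC5 receptors, stood at 0.768 FPKM in the shSIK2 library and 4.03 FPKM in the scrambled library, 5.25-fold lower (4.75 to 5.81). SRGAP1, a GTPase-activating protein recruited by ROBO receptors, stood at 2.45 FPKM in the shSIK2 library and 9.65 FPKM in the scrambled library, 3.94-fold lower (3.69 to 4.21). FYN, a Src family kinase, was 4.67-fold lower (3.39 to 6.57), at 46 reads in the shSIK2 library and 215 in the scrambled library. The netrin receptor DCC was among the genes of this list that did not reach 1 FPKM.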

How the data were processed

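Total RNA was extracted with Trizol and made into libraries by an Illumina method, per the labels' protocols. The submitters' processing notes list HISAT2 2.0.5 and hg18. They name no counter, annotation or strand setting. The authors deposited FPKM per Ensembl gene, per the file headers. GENCODE release 29 (GRCh38) held all 58735 identifiers and supplied names, exon lengths and all gene coordinates printed here. Deposited FPKM times exon length gave whole multiples of 1 step, the same in both tables, for 100% of values above 0 (tolerance 0.001), and these were taken as reads. The FPKM values are therefore not scaled to each library's own total. The log2 ratio is of shSIK2 over scrambled, FPKM plus a pseudocount of 0.1, which understates the ratio of low genes. Folds are ratios of reads with exact Clopper-Pearson 95% intervals. GC content was taken over all transcripts of a gene, and trends were removed by medians in 20 bins each. Intervals cover counting error only, since each group held 1 library. They are too narrow where PCR copies were counted as reads. Named were members at least 2-fold apart, the most abundant measured member of each subfamily and the 6 effectors with the largest ratios; other members named were chosen after their values were seen. Members, lists and rules were chosen with earlier results of these data known. Read recovery, the 2-fold rule, intervals and trend removal were tested on simulated data. Scripts ran in Python 3.11.15 (scipy 1.17.1, pandas 2.3.3, numpy 2.4.6, matplotlib 3.10.9).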

Additional observations from a re-analysis of the deposited data

How the results depend on the processing

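With 1 library per group, leaving out a replicate was not possible. No paired analysis was possible because each group held 1 library. A pseudocount of 1 FPKM left 5 guidance genes higher and 3 lower and 4 effectors lower, beside 5.91% and 4.83% of all genes, by its construction since it shrinks the ratios of low genes. A minimum of 3 FPKM left 3 of 21 guidance genes lower, beside 7.11% of all genes. No minimum gave 10 of 59 lower, beside 10.5%, and 6 of 68 effectors higher, beside 16.0%. At equal totals 4 of 49 effectors were lower, beside 6.04%. A minimum of 1 FPKM on the mean of both libraries, chosen after seeing the data, gave 10 and 6 of 29 guidance genes. The shares of all genes were 8.64% and 7.28%. This minimum left out only PLXND1, which was not 2-fold apart, so it could not change the counts and is no check on them. Genes at 1 FPKM in 1 library only can still pass it. A pseudocount of 0.01 FPKM moved none of the 30 named genes across 2-fold, 1 FPKM moved 9, equal totals 3 and trend removal 8. No named gene changed sign past 2-fold under any of these. Depth limits the genes under 1 FPKM, whose intervals are wide.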

Other observations

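Neighbouring genes gave a further description of the members at least 2-fold apart. These members were picked for their ratios, so an extreme place among neighbours is largely set by that choice. EFNA1 had 45 measured protein-coding neighbours within 1000000 bases, with a median log2 ratio of -0.39, and all 45 had a lower ratio than EFNA1. Around UNC5B 12 neighbours had a median of -0.24, and all 12 had a higher ratio than UNC5B. PLXNB2, SEMA4F and EFNB1 also had the highest ratio of their stretch, among 20, 27 and 3 neighbours. EFNA4, EFNB3, EPHB2, SEMA4G and PLXNA3 did not, with 2, 2, 1, 1 and 4 neighbours above them. SEMA3F had 35 neighbours with a median log2 ratio of 0.10, of which 2 had a higher ratio than SEMA3F. Of these 35, 7 passed 2-fold on the higher side and 0 on the lower, beside 8.41% and 6.64% of all measured protein-coding genes. EPHA5 and SEMA3D had no measured protein-coding neighbour within that distance, and EPHA4 had 1, with a log2 ratio of -1.02.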
